A study of Arabidopsis thaliana with 54 samples.

Results

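Of the 223365 small RNA features with a numbered trex name, 100 were selected on their level, which was lower 4 h after lights off than at the end of the light period in each of 3 photoperiods. They were chosen by group means of log2(CPM + 1), where CPM is the usual counts-per-million scale, with the single entry named genome left out of the library total. A feature was eligible if its mean CPM over all libraries was at least 5 and it was not among the 100 most abundant trex features, which left 3985. The score of a feature was the smallest of its 3 steps from the end of light to 4 h into dark, and 328 features had a score above 0. The 100 with the highest scores are the members described here. The meaning of trex names, not given in the sources used here, remains unknown, and the files do not pair them with genes, so members are described by their counts and at most 2 are named in each direction.

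Small RNA was sequenced from whole seedlings of the Arabidopsis thaliana accession Columbia 0, shoot, hypocotyl and root together, with no mutant line in the series. Every seedling was first raised for 10 days under equal light and dark (12 h each). Day 11 brought the move to long day (16 h light, 8 h dark) or short day (8 h light, 16 h dark), while equinox day (12 h light, 12 h dark) kept the starting cycle, and the harvest fell on day 13. Samples were taken at 4, 8, 12, 16, 20 and 24 h of Zeitgeber time (ZT, hours from lights on) as replicates A, B and C, so that 54 libraries form 18 groups of 3. ZT 16 in long day, ZT 12 in equinox day and ZT 8 in short day are the end of the light period, and ZT 24 is the end of the night in all 3. The labels do not say on which side of the switch the libraries at these times were taken, nor whether replicates are separate cultures. The p-values therefore rest on the spread among these libraries, which may be technical. Transfer to a new photoperiod came 2 days before collection, so long day and short day hold seedlings early after the change, while equinox day seedlings saw none.

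Plant small RNAs are short fragments cut from longer precursors. MicroRNAs are released from hairpin transcripts and guide Argonaute proteins to messenger RNAs with matching sites, and small interfering RNAs come from double-stranded RNA and act on transposons, viruses and genes. Libraries of this kind also catch fragments of transfer, ribosomal and organelle RNA. Many plant transcripts follow the day through light signals and the circadian clock, so light and dark samples of a seedling can hold different RNA. Which of these classes the members belong to is not known.

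Library totals without the genome entry ran from 1333843 to 3585724 counts, and the genome entry held 79.6% to 92.9% of all counts. The members were mostly of low to moderate level, with mean CPM from 5.18 to 328 and a median of 10.4, against a median of 13.5 for the eligible features. All 100 passed the filter on low counts. On the first principal component of log2 CPM, which took 21.0% of the variance, 5 short-day libraries stood outside the range of the other 2 photoperiods: ZT 4 B, ZT 12 C, ZT 16 B, ZT 20 A and ZT 24 C. The main counts and levels that rest on short-day libraries are also given without them.

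The step that chose the members is a description and was not tested. The median member was lower by 1.40 log2 units from ZT 16 to ZT 20 in long day, by 1.35 from ZT 12 to ZT 16 in equinox day and by 1.33 from ZT 8 to ZT 12 in short day. The eligible features as a whole had median steps of the opposite sign, -0.55, -0.17 and -0.24 in the same order. The step was at least 1 log2 unit for 75 members in long day, 75 in equinox day and 68 in short day. It was largest in long day for 45 members, in equinox day for 31 and in short day for 24. Scores ran from 0.49 to 2.09 with a median of 0.93. The last members inside had scores of 0.491 and 0.488, and the first features outside had 0.477 and 0.476. Over all 8869 features tested, 6.17% were higher and 7.96% lower at the end of light in long day, 0.361% and 0.0113% in equinox day, and 1.07% and 0.0338% in short day. The shares of 2 entries moved with this step in long day and short day. The genome entry had a median share of 80.2% at the end of light and 88.8% at 4 h into dark in long day, and of 81.0% and 89.0% in short day. The most abundant trex feature, trex5742, held a median of 35.4% of the other counts at the end of light and 20.2% at 4 h into dark in long day, and 28.1% and 21.4% in short day. In equinox day, where the members' step was of like size, the genome entry stood at 87.0% and 86.7%, and trex5742 had a median of 29.0% and then 26.3%, but a mean of 25.4% and then 26.9%. Their part in the step was not tested.

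In each of the 3 photoperiods the median member was higher at every light time than at every dark time, also at the times that the rule did not use. In long day the median member had log2(CPM + 1) levels of 3.82 at ZT 4, 3.64 at ZT 8, 4.14 at ZT 12 and 4.44 at ZT 16, and of 3.02 at ZT 20 and 2.66 at ZT 24. The highest of the 6 times was ZT 16 for 65 of the 100 members, and the lowest was ZT 24 for 81. Among the eligible features 12.7% were highest at ZT 16 and 15.9% lowest at ZT 24. The rule picked members that are high at the end of light, so the counts of highest times are partly set by it in every photoperiod and nothing is read from them. After 8 h of dark the median member stood at 23.3% of its CPM at the end of light, down from 33.5% after 4 h, and 83 of the 100 members were lower at 8 h than at 4 h. The median of the eligible features was 3.89 at ZT 20 and 3.74 at ZT 24. Percentages of the end-of-light CPM rest on groups the rule used, so they are partly set by it in every photoperiod. Counts of members lower between dark times are on CPM without TMM scaling factors. The share of eligible features that were lower in these steps was not counted in any photoperiod, so nothing is read from these counts.

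In equinox day the median member went from 3.53 at ZT 4 to 4.15 at ZT 8 and 4.32 at ZT 12 on the same log2 scale, then to 2.94 at ZT 16, 2.75 at ZT 20 and 2.43 at ZT 24. The median of the eligible features was 3.43, 3.84 and 3.70 at ZT 4, 8 and 12. By edgeR with TMM scaling factors, the median change of the members from ZT 4 to ZT 8 was 0.09. The highest time was ZT 12 for 58 members and ZT 8 for 36, and ZT 24 was the lowest for 68. Among the eligible features 11.0% were highest at ZT 12, 23.8% highest at ZT 8 and 31.3% lowest at ZT 24. The median member held 36.2% of its end-of-light CPM after 4 h of dark, 30.4% after 8 h and 22.3% after 12 h. From 4 to 8 h 69 members were lower again, and from 8 to 12 h 73 were, with the share of eligible features not counted. The median of the eligible features also fell from ZT 20 to ZT 24, from 3.81 to 3.43. By edgeR with TMM scaling factors, the median change of the members over that step was 0.03, with 51 of 100 positive.

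In short day the median member had levels of 4.11 at ZT 4 and 4.12 at ZT 8 in the light, and of 2.76, 2.38, 2.48 and 2.72 at ZT 12, 16, 20 and 24 in the dark. Without the 5 libraries that stand apart, these levels were 4.17, 4.12, 2.84, 2.42, 2.42 and 2.70 in the order of time. The highest time was ZT 8 for 58 members and ZT 4 for 40, against 11.3% and 13.4% of the eligible features, and without those 5 libraries it was 50 and 49. The lowest was spread over the night, with 17 members at ZT 12, 36 at ZT 16, 29 at ZT 20 and 17 at ZT 24, against 11.3%, 23.1%, 24.9% and 10.2% of the eligible features. Without those libraries these counts were 15, 42, 27 and 15. The median member held 37.9% of its end-of-light CPM after 4 h of dark, 28.7% after 8 h, 27.8% after 12 h and 34.2% after 16 h, or 38.5%, 26.8%, 26.0% and 36.4% without those libraries. The lowest median level was at ZT 16, and the level at the end of the night was close to that of ZT 12. From 8 to 12 h and from 12 to 16 h 43 of the 100 members were lower in each step, with the share of eligible features not counted. The median of the eligible features was 3.54 at ZT 16, 3.56 at ZT 20 and 3.85 at ZT 24, so it also rose late in the night. With TMM scaling factors in edgeR, the median change of the members from ZT 16 to ZT 24 was -0.08, with 47 of 100 positive. At ZT 16 the median was 4.44 in long day, at the end of light, 2.94 in equinox day after 4 h of dark and 2.38 in short day after 8 h of dark. The first 2 of these groups were used by the rule, so the values at ZT 16 were not tested.

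**Figure D1:**
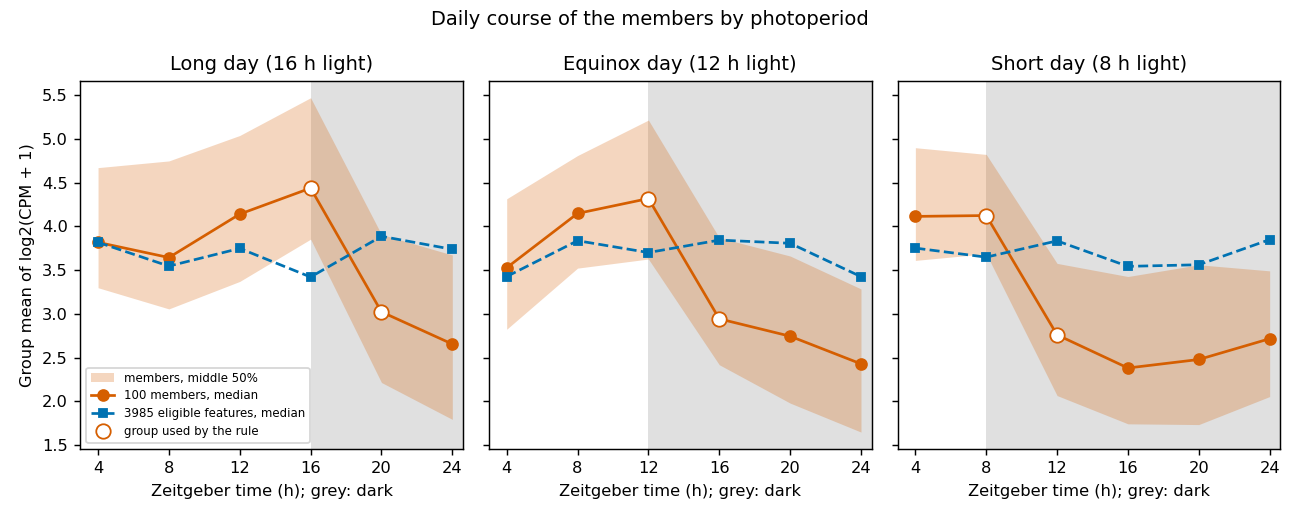
Median group mean of log2(CPM + 1) of the 100 members (orange circles, shading for the middle 50% of members) and of the 3985 eligible features (blue squares) against Zeitgeber time in h, with the dark in grey and 3 libraries a group; open circles are groups the rule used. The members sit at 3.53 to 4.44 in the light and at 2.38 to 3.02 in the dark, while the eligible features stay between 3.42 and 3.89.

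**Figure D2:**
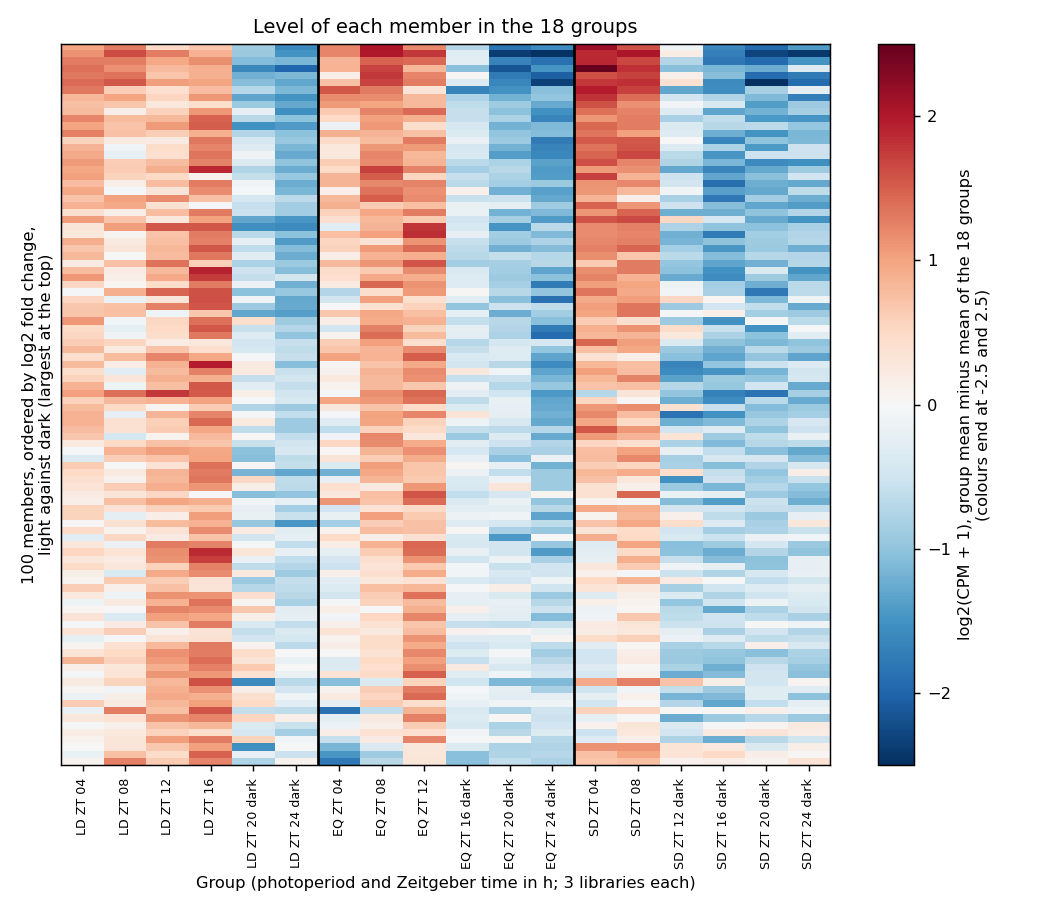
Group mean of log2(CPM + 1) of each of the 100 members (rows, ordered by their light against dark fold change) minus its own mean over the 18 groups (columns, by photoperiod and Zeitgeber time in h). Red (above the mean) prevails in the light groups and blue (below it) in the dark groups of all 3 photoperiods, and the contrast fades towards the bottom rows.

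Summed over the 100 members, the level in the groups the rule did not use was 2119 to 3684 CPM in the 9 light libraries of long day and 960 to 1690 in the 3 dark ones. In equinox day it was 1433 to 4026 CPM in 6 light libraries and 638 to 1143 in 6 dark ones. In short day it was 2988 to 3589 CPM in 3 light libraries and 869 to 1467 in 9 dark ones. Without the 5 libraries that stand apart the short-day ranges were 3554 to 3589 in light and 932 to 1467 in dark. Within each photoperiod the 2 ranges do not overlap. In whole seedlings a smaller number of cells that hold these RNAs and less RNA per cell cannot be told apart.

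The tests below use only the 12 groups that played no part in the steps: the light groups before the end of the day and the dark groups later than 4 h. In these groups every light time was an earlier Zeitgeber time than every dark time, also across photoperiods. All comparisons of light with dark in these groups therefore do not separate light from time of day, and the part of each was not tested. Averaged over the 3 photoperiods, the members were higher in the light groups than in the dark groups. Of the 100 members 88 were higher and 0 lower at an adjusted p under 0.05 (edgeR quasi-likelihood test, Benjamini-Hochberg over all 8869 features), where 5.12% of all features were higher and 0.97% lower. The log2 fold change was positive for all 100 members, from 0.24 to 4.03 with a median of 1.58, against a median of -0.03 over all features. Of the 88 that passed, 69 had a log2 fold change of at least 1, 30 of at least 2 and 7 of at least 3. The 12 that did not pass had values of 0.24 to 0.71. Without the 5 short-day libraries that stand apart, 82 members were higher and 0 lower. Among the other 3882 eligible trex features tested 120 were higher and 54 lower, and among the 149 microRNA features 5 were higher and 4 lower. Over these groups, with the photoperiods pooled, the genome entry had a median share of 86.1% in both light and dark, and trex5742 of 23.3% in light and 25.3% in dark. By photoperiod the mean share of trex5742 was 21.5%, 24.4% and 25.4% in light and 20.4% in dark in long day. It was 19.9% and 21.5% in light and 23.5% and 28.0% in dark in equinox day. In short day it was 22.9% in light and 30.2%, 31.1% and 22.0% in dark. The part of this share in the comparisons was not tested.

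**Figure D3:**
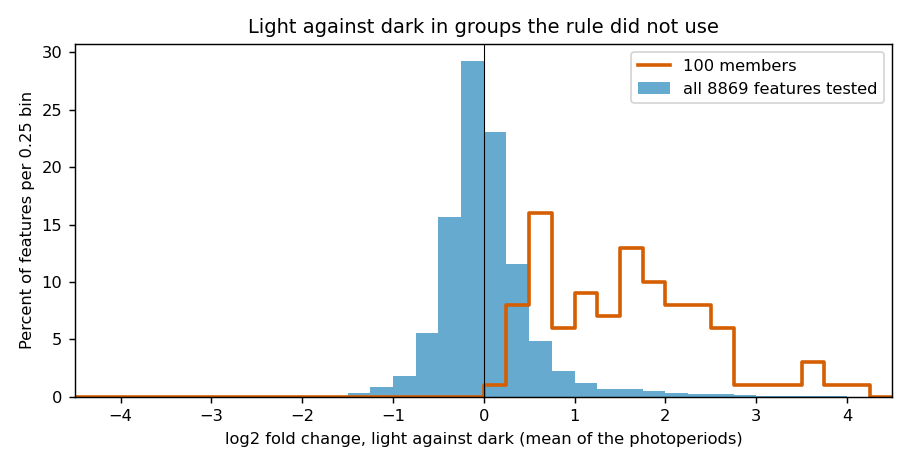
Histogram of the log2 fold change of light against dark (x axis, bins of 0.25) averaged over the photoperiods, from the 12 groups the rule did not use, as percent of features (y axis) for the 100 members (orange line) and all 8869 features tested (blue bars). The members lie to the right of 0, with a median of 1.58, and all features centre near 0, with a median of -0.03.

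Each photoperiod gave the same direction on its own. In equinox day 60 members were higher in light and 0 lower, against 2.77% and 0.699% of all features, with a median log2 fold change of 1.44 (97 of 100 positive). In short day 60 were higher and 0 lower, against 2.47% and 0.0677%, with a median of 1.69 (96 positive). Without the 5 short-day libraries that stand apart, 57 were higher in short day. In long day 49 were higher and 0 lower, against 1.22% and 0.97%, with a median of 1.44 (99 positive). Long day has a single group late in the dark, ZT 24, and its count depends on those libraries: it was 12 without ZT 24 A, 21 without ZT 24 B and 27 without ZT 24 C. The median stayed between 1.38 and 1.53 over the 54 fits that each left out 1 library. By photoperiod, 36 members were higher in light in all 3, 24 in 2, 13 in 1 and 27 in none, against 0.665%, 1.23%, 2.01% and 96.1% of all features. Without the 5 libraries that stand apart these counts were 34, 26, 16 and 24, against 0.665%, 1.09%, 2% and 96.2%.

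In 55 of the 100 members every light group mean was above every dark group mean over the 12 groups the rule did not use, against 2.53% of the eligible features. Without the 5 short-day libraries that stand apart it was 57 members and 2.48%. Over all 18 groups this held for 41 members and 1.1% of eligible features, a count that includes the groups of the rule.

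The 2 members with the highest scores, trex23954 and trex4614, were below all of their light libraries by the first sample in the dark. For trex23954, replicates A, B and C in long day had 28.0, 21.6 and 27.7 CPM at ZT 4, 24.5, 22.2 and 14.7 at ZT 8, 21.5, 24.5 and 28.0 at ZT 12, 48.4, 44.6 and 56.2 at ZT 16, 6.98, 5.74 and 8.60 at ZT 20, and 4.87, 7.23 and 2.88 at ZT 24. In equinox day they had 12.9, 22.6 and 19.8 CPM at ZT 4, 52.1, 49.7 and 31.6 at ZT 8, 43.5, 24.3 and 28.8 at ZT 12, 6.58, 7.09 and 6.10 at ZT 16, 7.92, 7.08 and 7.34 at ZT 20, and 5.95, 1.82 and 5.66 at ZT 24. In short day they had 48.4, 12.0 and 34.9 CPM at ZT 4, 36.4, 27.02 and 25.0 at ZT 8, 7.08, 5.38 and 2.45 at ZT 12, 4.84, 3.80 and 1.95 at ZT 16, 4.63, 6.34 and 3.19 at ZT 20, and 6.71, 4.43 and 8.46 at ZT 24. Every dark library was below every light library, and the dark libraries lay between 1.82 and 8.60 CPM from the first dark time on. In the groups the rule did not use, the log2 fold change of light against dark was 2.38 ± 0.22 (SE, 18 libraries each, adjusted p = 1.33e-11 by edgeR).

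For trex4614 the long-day values of replicates A, B and C were 77.7, 45.6 and 37.4 CPM at ZT 4, 42.4, 51.1 and 26.2 at ZT 8, 52.3, 58.4 and 57.6 at ZT 12, 122, 70.5 and 92.6 at ZT 16, 18.4, 17.2 and 24.1 at ZT 20, and 8.85, 17.3 and 18.2 at ZT 24. The equinox-day values were 51.3, 33.0 and 59.4 CPM at ZT 4, 64.1, 49.2 and 90.3 at ZT 8, 90.7, 87.7 and 74.9 at ZT 12, 21.7, 18.5 and 18.3 at ZT 16, 10.7, 12.4 and 16.2 at ZT 20, and 13.6, 11.4 and 17.8 at ZT 24. The short-day values were 79.2, 52.5 and 102 CPM at ZT 4, 68.1, 89.2 and 106 at ZT 8, 18.7, 14.0 and 17.7 at ZT 12, 12.8, 7.05 and 13.1 at ZT 16, 12.2, 15.7 and 20.5 at ZT 20, and 15.9, 14.9 and 8.46 at ZT 24. Light and dark libraries again did not overlap. In equinox day the ZT 16 libraries lay above those of ZT 20 and ZT 24, and the highest group mean was at the end of light in each photoperiod. The log2 fold change of light against dark in the unused groups was 2.09 ± 0.21 (SE, 18 libraries each, adjusted p = 2.07e-10 by edgeR).

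The 2 members with the smallest p in the same comparison, both higher in light, were trex545851 and trex9131. In equinox day and short day their libraries at 4 h into dark lay between their light and their late dark libraries, as those of trex4614 did in equinox day. For trex545851 the long-day values of replicates A, B and C were 65.0, 52.7 and 46.2 CPM at ZT 4, 53.5, 71.6 and 54.8 at ZT 8, 37.4, 45.0 and 42.8 at ZT 12, 33.5, 36.5 and 51.0 at ZT 16, 9.47, 8.13 and 9.17 at ZT 20, and 7.08, 6.83 and 8.16 at ZT 24. The equinox-day values were 28.6, 18.1 and 71.3 CPM at ZT 4, 51.4, 46.1 and 118 at ZT 8, 55.9, 39.6 and 52.8 at ZT 12, 16.4, 13.6 and 15.8 at ZT 16, 4.36, 6.63 and 6.18 at ZT 20, and 3.50, 5.93 and 1.21 at ZT 24. The short-day values were 61.3, 66.0 and 80.7 CPM at ZT 4, 56.8, 71.8 and 92.3 at ZT 8, 35.9, 21.9 and 22.1 at ZT 12, 6.60, 5.43 and 5.86 at ZT 16, 1.69, 2.67 and 3.90 at ZT 20, and 3.77, 4.43 and 5.21 at ZT 24. In short day its mean went from 73.6 CPM at the end of light to 26.6, 5.96 and 2.75 CPM after 4, 8 and 12 h, so the libraries of each of these times lay below those of the time before. Its log2 fold change of light against dark in the unused groups was 3.46 ± 0.23 (SE, 18 libraries each, adjusted p = 6.41e-16 by edgeR).

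For trex9131 the long-day values were 172, 115 and 77.9 CPM at ZT 4, 157, 187 and 151 at ZT 8, 119, 149 and 122 at ZT 12, 94.8, 79.1 and 122 at ZT 16, 36.4, 23.0 and 24.1 at ZT 20, and 12.4, 26.9 and 17.8 at ZT 24. The equinox-day values were 96.6, 66.9 and 297 CPM at ZT 4, 169, 169 and 341 at ZT 8, 202, 141 and 214 at ZT 12, 33.5, 40.9 and 56.1 at ZT 16, 7.92, 8.85 and 11.6 at ZT 20, and 9.45, 10.0 and 6.87 at ZT 24. The short-day values were 119, 229 and 274 CPM at ZT 4, 196, 207 and 252 at ZT 8, 71.3, 43.4 and 68.6 at ZT 12, 18.03, 14.6 and 13.7 at ZT 16, 7.16, 11.4 and 11.7 at ZT 20, and 11.7, 7.65 and 8.46 at ZT 24. The highest long-day mean was at ZT 8, before the end of light, and the replicates of ZT 4 in equinox day were far apart, with C above A and B for this member and for trex545851. In that library C, trex5742 held 7.59% of the other counts, the lowest share of all libraries, against 23.4% in A and 28.5% in B. The part of this share in these values was not tested. For trex9131 the log2 fold change of light against dark in the unused groups was 3.79 ± 0.26 (SE, 18 libraries each, adjusted p = 6.41e-16 by edgeR). In the unused groups the light and dark libraries of each of the 4 named members do not overlap. This describes picked members: trex545851 and trex9131 were named by their p in this comparison, and trex23954 and trex4614 by their score. Such overlap was not counted over the other features.

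**Figure D4:**
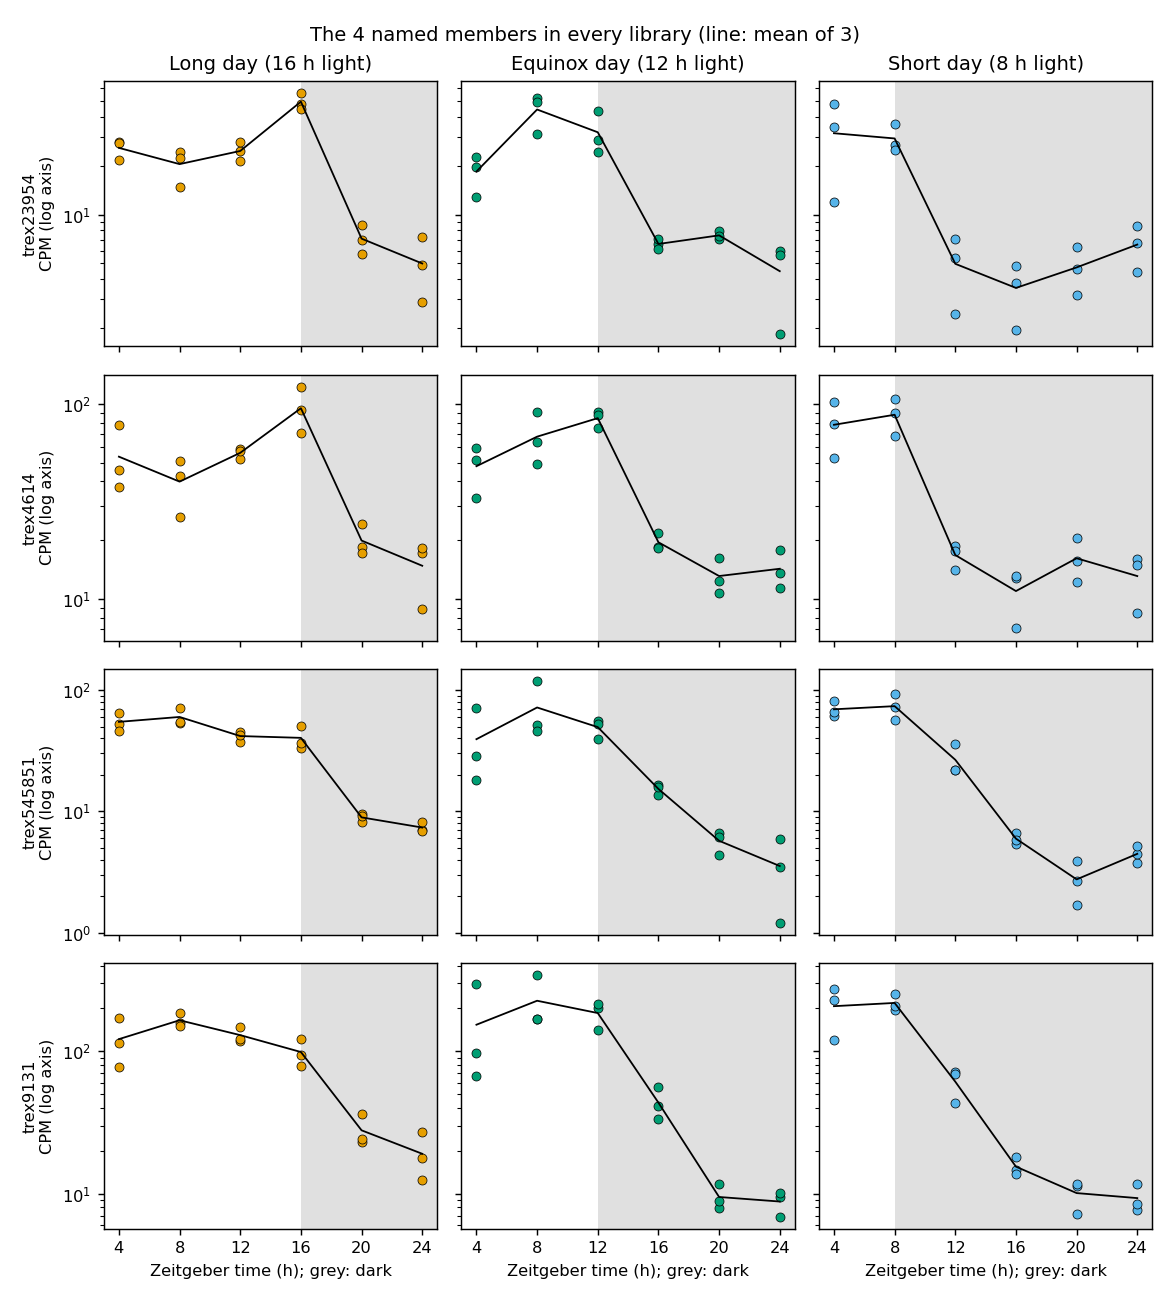
CPM (log axis) of trex23954, trex4614, trex545851 and trex9131 (rows) in every library (points) against Zeitgeber time in h in the 3 photoperiods (columns), with lines through the mean of 3 replicates and the dark in grey. The dark libraries of the upper pair lie below all of their light libraries from the first dark time on, and trex545851 in short day steps down from 73.6 to 26.6, 5.96 and 2.75 CPM over 12 h of dark.

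At 4 h after lights on, 23 to 47 of the members per photoperiod were higher than at the end of the night. The median log2 fold change of ZT 4 against ZT 24 was 1.42 in long day (97 of 100 members positive), 1.33 in equinox day (90 positive) and 1.64 in short day (96 positive), against 0.03, 0.08 and 0.03 over all features. By edgeR, 23 members were higher in long day, 29 in equinox day and 47 in short day, with 0 lower in each, where 0.507%, 1% and 1.36% of all features were higher and 0.316%, 0.192% and 0.0564% lower. At an unadjusted p under 0.05, 70, 63 and 73 members passed, against 10%, 12.9% and 8.56% of all features. With 3 libraries against 3 these counts lean on single libraries. In long day the count was 4 without ZT 24 A, 12 without ZT 24 C, and 8, 13 and 11 without ZT 4 A, B and C. In equinox day it was 8 without ZT 4 C, 16 without ZT 24 B and 15 without ZT 24 C. In short day it was 17 without ZT 4 C, 19 without ZT 24 B, 24 without ZT 24 C and 27 without the 5 libraries that stand apart. These comparisons share libraries with those of light against dark and are not separate support for them. The size of the morning step was compared between photoperiods in 1 joint test: 0 members passed, against 0.169% of all features, 12 had an unadjusted p under 0.05 against 8.17% of all features, and DESeq2's likelihood-ratio test and the fit without the 5 libraries that stand apart also called 0.

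Within the light and within the late dark no member passed in either direction, with or without the 5 short-day libraries that stand apart. Between ZT 4 and ZT 12 in long day the median member was higher by 0.21 on the log2 scale at ZT 12, and 0% of all features were higher or lower. Between ZT 4 and ZT 8 in equinox day the median was 0.09 at 0.0113% of all features higher and 0.101% lower. Between ZT 20 and ZT 24 in equinox day it was 0.03 at 0% and 0%, and between ZT 16 and ZT 24 in short day -0.08 at 0.361% higher and 0.248% lower. At an unadjusted p under 0.05, 20, 6, 7 and 8 members passed in this order, against 3.47%, 13.8%, 11% and 7.17% of all features, and DESeq2 called 0, 1, 0 and 0. The sign of each of these 4 medians depends on single libraries. Over the 54 fits that each left out 1 library they ran from -0.02 to 0.51 and from -0.11 to 0.37 within the light, and from -0.27 to 0.16 and from -0.23 to 0.15 within the dark. The medians within the dark also change sign with the scaling: equinox day gave -0.35 without TMM factors and short day gave 0.25. The median of all features moved by -0.41 and 0.31 in those fits.

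**Figure D5:**
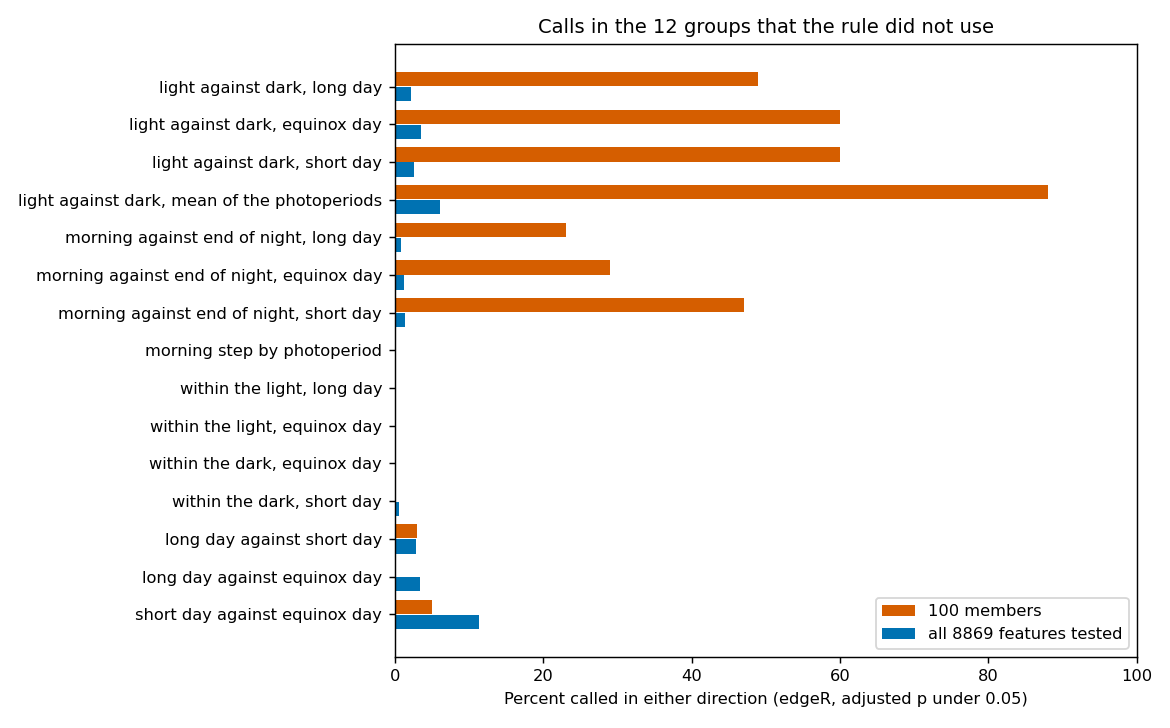
Percent of the 100 members (orange) and of all 8869 features tested (blue) with an adjusted p under 0.05 in either direction (x axis), for the 15 comparisons of groups that the rule did not use (y axis). Members stand at 23% to 88% in the comparisons of light with dark and of morning with night, and at 5% or less in the others.

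The photoperiods themselves were compared over ZT 4 and ZT 24, the times that are light and dark in all 3 and that the rule did not use. Between long day and equinox day 0 members passed, against 1.66% of all features higher and 1.74% lower. Between long day and short day 2 were higher and 1 lower, against 1.29% and 1.58%. Between short day and equinox day 2 were higher and 3 lower, against 5.25% and 6.08%. At an unadjusted p under 0.05, 9, 16 and 31 members passed in this order, against 18.2%, 24.4% and 27.7% of all features. Median log2 fold changes were -0.04, -0.16 and -0.01, with ranges of -0.14 to 0.19, -0.38 to -0.01 and -0.18 to 0.16 over the fits that each left out 1 library. Without TMM factors the first was 0.33 and the last 0.40. Without the 5 short-day libraries that stand apart the second was -0.39 and the last 0.16. The counts of calls are near or under the background, and they moved between 0 and 6 higher and 0 and 2 lower for long against short day, and between 0 and 8 higher and 2 and 7 lower for short day against equinox day, in the fits that each left out 1 library. The most members higher came without short-day ZT 4 C for long against short day, and without equinox-day ZT 24 A for short day against equinox day. The 7 lower for short day against equinox day came without short-day ZT 4 C.

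Some members lay near each other in the trex numbering, though most had no other member near. Of the 100 members 38 had another member within 10 trex numbers, while 84 of the 3885 other eligible features, 2.16%, had a member that near. Within 50 numbers it was 44 members and 6.82% of the other eligible features. The labels and the table do not say what order the numbers follow. Over the 36 libraries of the unused groups, Pearson's r of log2(CPM + 1) had a median of 0.59 over the 4950 pairs of members and of 0.82 over the 35 pairs within 10 numbers. A member against the median of the other members had a median r of 0.79, with values from 0.12 to 0.94, and the other eligible features against the members' median had a median r of 0.05. Over the 32 of these libraries that do not stand apart, the 4 medians of r were 0.61, 0.85, 0.79 and 0.09 in this order. These correlations are a description: the points share their libraries, their depth and the difference between light and dark.

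MicroRNAs are the features of the table with known names, and 123 of them had a mean CPM of at least 5. By the same 3 steps 13 of these had a score above 0, as had 328 of the 3985 eligible trex features. In all 3 photoperiods 55 of the microRNA features were higher after 4 h of dark. Among the eligible trex features 29.6%, 37.9% and 34.1% had a step above 0 in long, equinox and short day. Their share with all 3 steps below 0 was not counted. These counts are on CPM without TMM factors and were not tested. The 4 microRNA features of highest score are shown because they are the named small RNAs whose course can be set beside that of the members. Their mature sequences are read from RefSeq's annotation of TAIR10.1, 5′ to 3′, with the seed (bases 2 to 8) in capitals, and no seed is shared. They lie on chromosome 2 in MIR779 (AT2G22496, chr2:9560866-9560886, plus strand), on chromosome 3 in MIR158a (AT3G10745, chr3:3366391-3366411, minus strand), on chromosome 4 in MIR168a (AT4G19395, chr4:10578737-10578757, plus strand) and on chromosome 1 in MIR165a (AT1G01183, chr1:79010-79030, minus strand).
miR779.2: uGAUUGGAaauuucguugacu
miR158a-5p: cUUUGUCUacaauuuuggaaa
miR168a-3p: cCCGCCUUgcaucaacugaau
miR165a-5p: gGAAUGUUgucuggaucgagg

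Of these, miR779.2 was nearest to the members, with a score of 1.01. Its CPM in the unused light groups ran from 12.3 to 36.7 with a median of 19.8, and in the unused dark groups from 5.02 to 17.8 with a median of 9.65, so the 2 ranges overlap. Without the 5 libraries that stand apart the ranges were the same and the medians 19.9 and 9.64. The log2 fold change of light against dark was 1.22 ± 0.18 (SE, 18 libraries each, adjusted p = 2.21e-06 by edgeR). It passed in equinox day (1.00 ± 0.28, adjusted p = 0.031) and in short day (1.42 ± 0.30, adjusted p = 0.00144), and in long day its value was 1.22 ± 0.35 (adjusted p = 0.0509). Calls within 1 photoperiod were not stable. The equinox-day call was lost in 24 of the 54 fits that left out 1 library and in 7 of the 11 other settings, among them the one without the 5 short-day libraries that stand apart (0.96, adjusted p = 0.0521). The short-day call was lost without ZT 4 C (adjusted p = 0.192) and in 2 of the 11 other settings, and long day passed in 10 of the 54 fits and 3 of the 11 settings. The mean over the photoperiods passed in all of them, with 1.30 without the libraries that stand apart.

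The 5p strand of miR165a, the partner of the arm that represses HD-ZIP III transcription factors of leaf polarity, had a score of 0.51. It ran from 272 to 503 CPM with a median of 330.5 in the unused light groups and from 187 to 338 with a median of 223 in the dark ones, and was higher in light (0.55 ± 0.15, adjusted p = 0.0107 by edgeR), a call that was lost without short-day ZT 4 C (0.33, adjusted p = 0.199) and without long-day ZT 24 C (0.48, adjusted p = 0.0739) and in 4 of the 11 other settings (without the filter on low counts and without each letter, with adjusted p up to 0.551), and was kept at 0.60 without the 5 libraries that stand apart. Without those libraries its median was 331 CPM in light and 237 in dark. The feature of its partner arm, miR165a-3p with miR165b, had a value of -0.20 ± 0.15 (adjusted p = 0.65). The 3p strand of miR168a, whose partner arm targets AGO1, the main Argonaute of microRNAs, had 0.47 ± 0.15 (adjusted p = 0.051, under the threshold in 7 of the 54 fits without 1 library and in 4 of the 11 other settings, among them DESeq2 with adjusted p = 0.00198 and the fit without the 5 short-day libraries that stand apart with 0.51 and adjusted p = 0.0444), and the partner arm, shared by miR168a and miR168b, had 0.39 ± 0.15 (adjusted p = 0.165). The 5p strand of miR158a had 0.41 ± 0.16 (adjusted p = 0.174, and 0.42 without the libraries that stand apart), which passed only without TMM factors (0.47, adjusted p = 0.00878), and its partner arm -0.12 ± 0.14 (adjusted p = 0.831). The partner arms were chosen after the values were seen. All these microRNA fold changes are smaller than the median of 1.58 of the members.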

How the data were processed

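Small RNA of up to 40 nucleotides was selected by gel from whole-seedling RNA and sequenced in 54 libraries, per the labels' protocols. The authors deposited read counts per feature, whole numbers in every column, with 286 microRNA features, 223365 trex features and 1 genome entry. Of tools, cutadapt 3.4, SAMtools and Bowtie2 2.5.1 are listed, per the submitters' processing notes. The build, the way features were counted and the handling of multi-mapping reads, not given in the sources used here, remain unknown, as does the split of reads between near-identical microRNAs.

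The genome entry was left out of library totals, CPM and tests. Members were taken by the rule stated at the opening. The members, lists and contrasts were chosen with earlier results of these data known. The mean CPM of at least 5 used all libraries, so the contrasts of unused groups are independent of the 3 steps but share that minimum and the estimate of the spread with the other groups.

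All 54 libraries entered 1 edgeR 4.0.16 model (under R 4.3.3 with limma 3.58.1) that had a coefficient per group, 18 in all, and TMM factors. The filterByExpr filter (minimum count 10, minimum total 15) left 8869 features, 149 of them microRNAs, with 98.1% of the counts. For the 15 contrasts, p-values of the quasi-likelihood test were adjusted by Benjamini-Hochberg over these features, with calls at 0.05. Light against dark compared the mean of ZT 4, 8 and 12 with ZT 24 in long day, of ZT 4 and 8 with ZT 20 and 24 in equinox day, and ZT 4 with ZT 16, 20 and 24 in short day. Standard errors are those the test statistic implies. The fit was tested on simulated data, but no error rates from that test are given here. Named members were the 2 of highest score and the 2 of smallest p with a positive light against dark fold, and named microRNAs were the 4 of highest score.

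Libraries of 1 group differed by more than counting noise (lowest chi-square per degree of freedom 7.95), so none was counted as a copy. Alternatives were other scalings, filters, DESeq2 1.42.0, the replicate letter as a block, and fits without each library or letter. Leaving out the 5 short-day libraries that stand apart was chosen after seeing the data.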

Additional observations from a re-analysis of the deposited data

How the results depend on the processing

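In the comparisons of light with dark and of morning with night, 0 members were lower under every setting tried, and the median log2 fold change of the members stayed positive. Over the 8 settings other than leaving out 1 library or letter, members higher in light were 11 to 64 in long day, 36 to 63 in equinox day, 44 to 65 in short day and 68 to 91 for the mean of the photoperiods, and the lowest came without a filter on low counts in each case. Without a filter on low counts, where many more features share the adjustment, they were 11 in long day and 36 in equinox day, and in the morning 4, 13 and 18 in long, equinox and short day. The long-day morning count was 37 without TMM factors and 37 by DESeq2. Without the 5 short-day libraries that stand apart the short-day morning count was 27. DESeq2 called 1 member higher within the light of equinox day. The cause of these moves was not tested.

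With the replicate letter as a block, counts were 49, 60 and 60 for light against dark in long, equinox and short day, 85 for the mean of the 3, and 24, 28 and 45 in the mornings, and 0 members were lower in long against short day. Libraries of the same letter did not deviate together as a rule. The median correlation of their deviations from group means was -0.01, with single pairs from -0.76 to 0.72. Of 54 libraries 15 correlated best with their own letter, so the letters were not taken to pair samples. What single pairs of libraries share was not tested.

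Leaving out 1 library or 1 letter gave ranges of 1 to 55 members higher in light in long day, 29 to 61 in equinox day, 35 to 62 in short day and 70 to 91 for the mean. In the mornings the ranges were 0 to 30, 0 to 38 and 7 to 50. Without letter A, B or C each group holds 2 libraries.

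For long against short day, members higher were 0 without the filter, 1 with the filter of 1 CPM in at least 27 libraries, 0 without the libraries apart, and 0 to 6 over the fits that leave out replicates. Members lower were 2 with DESeq2 size factors, 2 by DESeq2, 0 with totals that include the genome entry, 0 without the filter, 0 without the libraries apart, and 0 to 2 over the fits that leave out replicates. For long against equinox day, 4 were higher without TMM factors, 1 was lower by DESeq2, and 0 to 1 were higher without replicates. For short against equinox day, members higher were 23 without TMM factors, 4 with totals that include the genome entry, 0 without the filter, 7 by DESeq2, 5 without the libraries apart and 0 to 8 without replicates, and members lower were 1 without TMM factors, 0 without the filter and 0 to 7 without replicates. Without TMM factors the median of all features in this comparison moved by 0.44.

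Of the 100 members 52 were kept with a minimum mean CPM of 10, 94 on TMM-scaled CPM, 88 on totals that include the genome entry, 98 and 96 with pseudocounts of 0.5 and 5, 78 with the mean of the steps in place of the smallest, and 79 to 86 without 1 letter. The 4 named members and miR779.2 kept their call for the mean of the photoperiods in the 54 fits without 1 library and the 11 other settings. Whether depth limits which members passed was not tested.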
